A study of Mus musculus with 4 samples.

Results

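RFP-positive cells sorted from the left ventricle of the mouse heart were sequenced one by one, and neutrophils and macrophages made up 95 of the 39829 cells that passed the filter, 35 neutrophils and 60 macrophages. The cells were chosen by their measured transcripts. A unique molecular identifier (UMI) marks 1 captured transcript. Among cells with over 200 genes, under 20% mitochondrial UMIs and under 1% hemoglobin UMIs, neutrophils had at least 10 UMIs of S100a8, S100a9 and Retnlg together and none of C1qa and C1qb. Macrophages had at least 4 UMIs of C1qa, C1qb, Csf1r and Cd68 together and under 10 of the neutrophil genes. Both had no UMI of the lymphocyte genes Cd79a, Cd79b, Cd3e and Cd3d. These genes, and all others that separate the subsets from each other, are therefore described without a test.

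The mice carried a red fluorescent reporter (R26-stop-tdTomato) switched on by the tamoxifen-inducible Cdh5-CreER, which is driven by an endothelial promoter, and a floxed Scarb1 gene, which encodes the HDL receptor SR-B1. The 2 NC libraries came from mice on the control diet, which the labels call chow (10% of energy from fat), and the 2 HFpEF libraries from mice given a high-fat diet (60% of energy from fat) with 0.5 mg/ml of the nitric oxide synthase inhibitor L-NAME in the drinking water. HFpEF is heart failure with preserved ejection fraction. Both regimens lasted 20 weeks and tamoxifen was given from 7 weeks of age. The study compared mice with deletion of Scarb1 in the endothelium with heterozygous controls. The paper describes sequenced cells of both genotypes on each regimen. The library labels name no genotype, so the 2 libraries of a regimen may differ in it and need not be replicates. The number of mice behind a library is not given in the sources used here.

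Neutrophils are short-lived granulocytes that are made in the bone marrow and enter tissue from blood. They store antimicrobial proteins in granules and release calprotectin, the dimer of S100a8 and S100a9. Macrophages of the heart are partly resident cells of embryonic origin, marked by Lyve1, Timd4 and Folr2, and partly descendants of Ccr2-positive blood monocytes, and they clear dead cells, present antigen on MHC class II and make C1q, the first component of the classical complement pathway. Neither cell type normally expresses Cdh5.

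The libraries differed in depth and in how often leukocyte barcodes had matching profiles. NC library 1 held 7114 cells with a median of 3753 UMIs and NC library 2 held 6687 cells with a median of 4125. HFpEF library 1 held 5440 cells with a median of 1736 UMIs and HFpEF library 2 held 20588 cells with a median of 1618. In HFpEF library 2, 84 of 2941 pairs of leukocyte barcodes (2.86%) had profiles that differed by little more than counting noise, against 1 of 157 (0.637%) in HFpEF library 1, which was of like depth, and 0 of 44 and 1 of 884 (0.113%) in NC libraries 1 and 2. The cause was not tested. By this measure the 29 neutrophil barcodes of HFpEF library 2 held 21 different profiles and its 27 macrophage barcodes held 16, with 1 set of 5 macrophage barcodes that had 1525 to 3835 UMIs each. In the other 3 libraries none of the 4 neutrophil pairs with enough genes to compare was matched, and 1 of 241 macrophage pairs was. Between libraries, 306 of 39829 cells shared a barcode sequence with a cell of another library, among them 0 neutrophils and 1 macrophage.

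The rule sat at a sparse edge for neutrophils and at a crowded edge for macrophages. The neutrophil genes gave 1 UMI in 122 cells and 9 UMIs in 2 cells just outside the rule, which had a median of 7019 UMIs. The 2 cells just inside it, with 10 UMIs, had a median of 945 UMIs. For macrophages, 1793 cells had 1 UMI of the 4 genes, 166 had 2 and 22 had 3, and 7 members had 4. Cd68 was the least specific of them, and 5.47% of 30979 endothelial cells (median 2793 UMIs) had a Cd68 UMI, against 78.3% of macrophages (median 5360 UMIs). The other rule genes were scarce in endothelial cells, with a UMI of S100a9 in 0.213%, of S100a8 in 0.174% and of C1qa in 0.103%. Endothelial cells had at least 2 UMIs of Cdh5 and Pecam1, none of Ptprc and the lymphocyte genes, and lay below both minimums of the rule. That definition in part fixed these percentages in advance. B cells had at least 2 UMIs of Cd79a and Cd79b and T cells of Cd3e and Cd3d, with none of the other pair and below the same minimums.

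The chromosomal positions of the marker genes are those of the GRCm38 annotation. S100a8 (ENSMUSG00000056054) lies at chr3:90668978-90670035 on the plus strand and S100a9 (ENSMUSG00000056071) nearby at chr3:90692632-90695721 on the minus strand, both subunits of calprotectin. C1qa (ENSMUSG00000036887) at chr4:136895917-136898803 and C1qb (ENSMUSG00000036905) at chr4:136880129-136886187, both on the minus strand, encode chains of C1q. The 250 bases before the start of S100a9 (chr3:90695722-90695971, minus strand) and of C1qb (chr4:136886201-136886450, minus strand), the most abundant rule gene of each subset, are shown 5′ to 3′ from the RefSeq annotation of GRCm38.p6. Capitals mark matches on either strand to TTNCNNAA, a core of the binding motif of C/EBP factors that act in granulocytes, and to GGAAGT, a core of the ETS family to which the myeloid factor PU.1 belongs.
S100a9: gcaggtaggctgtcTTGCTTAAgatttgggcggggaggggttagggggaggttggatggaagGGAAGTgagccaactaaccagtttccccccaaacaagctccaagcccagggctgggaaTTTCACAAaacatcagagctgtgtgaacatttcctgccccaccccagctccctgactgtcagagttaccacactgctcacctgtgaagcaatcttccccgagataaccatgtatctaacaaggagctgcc
C1qb: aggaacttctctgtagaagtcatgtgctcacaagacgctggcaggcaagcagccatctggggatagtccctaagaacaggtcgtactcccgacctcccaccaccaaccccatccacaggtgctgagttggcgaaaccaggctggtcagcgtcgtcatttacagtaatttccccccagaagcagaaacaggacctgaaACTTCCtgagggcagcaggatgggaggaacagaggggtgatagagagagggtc
The S100a9 window held 2 matches to the C/EBP letters and 1 to the ETS letters, and the C1qb window held 0 and 1. Of 32851 promoters of this length, 36.8% held the C/EBP letters and 19.7% the ETS letters, so a match alone is common and does not show binding.

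Neutrophils were found in 3 of the 4 libraries. NC library 1 held 0 of 7114 cells, which allows a share of up to 0.0422% when 3 counts of the total are taken as the limit and up to 0.0518% by the 95% exact binomial interval. NC library 2 held 2 cells (0.0299%, 95% exact binomial interval 0.00362 to 0.108). HFpEF library 1 held 4 cells (0.0735%, 0.0200 to 0.188) and HFpEF library 2 held 29 (0.141%, 0.0944 to 0.202). Both HFpEF libraries had a larger share than both NC libraries, with a mean of 0.107% ± 0.0476 (SD, n = 2) against 0.0150% ± 0.0211 (SD, n = 2), a difference of 0.0922 percentage points. The two-sided exact permutation test gave p = 0.333, the smallest p that 2 libraries against 2 can give, and the intervals of NC library 2 and HFpEF library 1 overlapped. Of the 4 cells of HFpEF library 1, 2 were at the minimum of 10 UMIs. With minimums of 20 and 8 UMIs its share was 0.0368% and the difference 0.0593 percentage points. Intervals cover counting error only and take barcodes as independent cells. With 1 barcode kept for each matched set the share of HFpEF library 2 was 0.102% and the difference 0.0728 percentage points. After every cell was thinned to 1000 UMIs, which left out 426, 352, 963 and 5133 shallower cells in NC libraries 1 and 2 and HFpEF libraries 1 and 2, the shares were 0, 0.0316%, 0.0670% and 0.136%.

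Macrophages were found in every library, and under the rule the regimens overlapped. NC library 1 held 5 cells (0.0703%, 0.0228 to 0.164), NC library 2 held 21 (0.314%, 0.194 to 0.480), HFpEF library 1 held 7 (0.129%, 0.0517 to 0.265) and HFpEF library 2 held 27 (0.131%, 0.0864 to 0.191). The lowest and the highest share were both in NC libraries. The mean was 0.192% ± 0.172 (SD, n = 2) in NC and 0.130% ± 0.00175 (SD, n = 2) in HFpEF, a difference of -0.0623 percentage points (two-sided exact permutation p = 1), which became 0.0596 without NC library 2. After thinning to 1000 UMIs per cell the shares were 0.0299%, 0.189%, 0.0670% and 0.129%, and the difference was -0.0115. With minimums of 5 and 2 UMIs, which admit cells with 2 UMIs such as of Cd68, the shares were 1.10%, 1.20%, 0.202% and 0.374% in NC libraries 1 and 2 and HFpEF libraries 1 and 2, a difference of -0.858 with no overlap between the regimens (two-sided exact permutation p = 0.333). The 166 cells with 2 UMIs had a median of 3.20% of their UMIs in the 10 endothelial genes named below, against 3.51% in endothelial cells. Endothelial cells with a UMI of any rule gene were 9.49%, 8.53%, 4.24% and 4.13% in the same order of libraries, and the NC libraries were deeper. The part of depth and of endothelial cells in this difference was not tested. B cells and T cells followed the same order between the NC libraries. B cells made up 0.112% of NC library 1 and 0.523% of NC library 2, and T cells 0.0562% and 0.194%. Within the 2 subsets, neutrophils were 0 of 5 cells in NC library 1, 8.70% in NC library 2, 36.4% in HFpEF library 1 and 51.8% in HFpEF library 2.

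**Figure D1:**
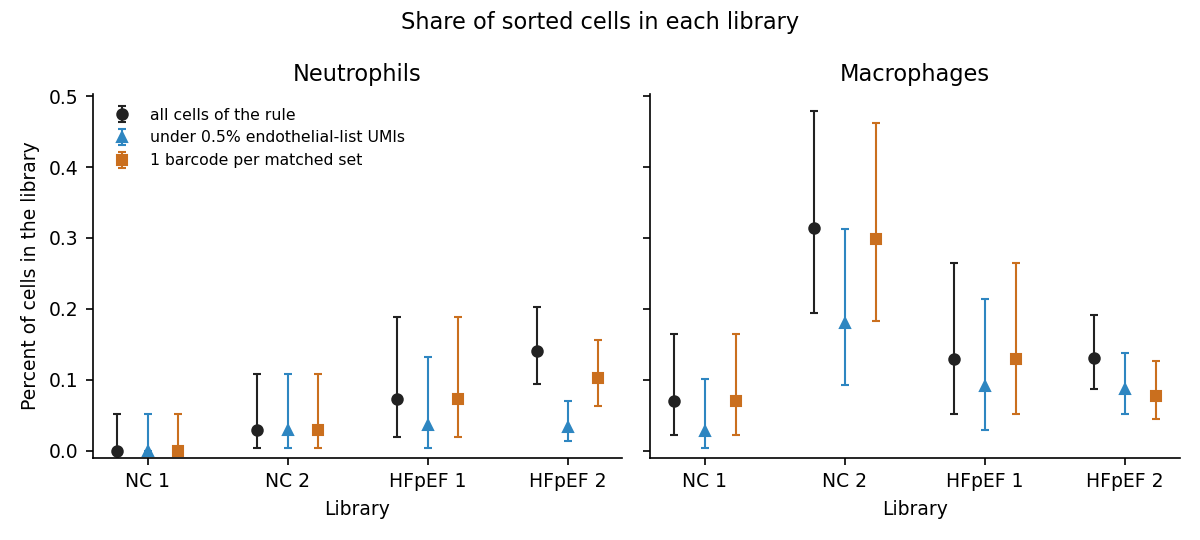
Neutrophils and macrophages as a percentage of all cells of a library (y axis), with bars for the 95% exact binomial interval, for all cells of the rule (circles), cells under 0.5% endothelial-list UMIs (triangles) and 1 barcode per matched set (squares). By the circles neutrophils rank higher in both HFpEF libraries (0.0735% and 0.141%) than in both NC libraries (0 and 0.0299%), whereas the macrophage share of NC library 2 (0.314%) lies above the other 3.

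Most neutrophils also held transcripts of endothelial cells. The UMIs of 10 endothelial genes (Cdh5, Pecam1, Kdr, Cldn5, Egfl7, Fabp4, Cav1, Esam, Tie1 and Emcn) were all detected in the neutrophils, led by the fatty acid carrier Fabp4, and made up a median of 3.51% of the UMIs of endothelial cells. In neutrophils the percentage fell into separate ranges, from 0 to 0.0844% (median 0.0228%) in 11 cells and from 1.16% to 5.63% (median 2.60%) in 24 cells. A division at 0.5%, set after these values were seen, thus placed 68.6% of neutrophils (95% exact binomial interval 50.7 to 83.1) in the upper range. These were 22 of 29 cells in HFpEF library 2, 2 of 4 in HFpEF library 1 and 0 of 2 in NC library 2. Without them the neutrophils numbered 0, 2, 2 and 7 in NC libraries 1 and 2 and HFpEF libraries 1 and 2, which gave 0, 0.0299%, 0.0368% and 0.0340% of cells and reduced the difference between the regimens to 0.0204 percentage points. Endothelial transcripts, which mark cells of another type, therefore moved with the difference in share, and their part in it was not tested.

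In macrophages the percentage was 0 to 0.468% (median 0.0457%) in 37 cells and 0.661% to 5.11% (median 1.93%) in 23 cells. The upper group was 3 of 5, 9 of 21, 2 of 7 and 9 of 27 cells in NC libraries 1 and 2 and HFpEF libraries 1 and 2. Of the B cells 70 of 127 and of the T cells 22 of 50 were above 0.5%, so such cells occurred in all 4 leukocyte classes. The defining genes of T cells and NK cells (Trac, Trbc2, Nkg7, Ncr1) were at 0 in both myeloid subsets, those of eosinophils and mast cells at 0 to 3 UMIs, and fibroblast genes at 0 in neutrophils and led by Dcn with 16 UMIs in macrophages, 13 of them in 1 cell. Mural cell genes gave 66 UMIs in 7 macrophages, of which 58 were of Rgs5 (161 CPM, that is, UMIs of the gene per 1000000 UMIs summed over the cells, against 599 CPM in endothelial cells). The immunoglobulin gene Ighm gave 34 UMIs in 21 of 60 macrophages (94.3 CPM against 0.142 CPM in endothelial cells), while the rule set Cd79a and Cd79b to 0. The part of these transcripts in the values below was not tested.

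**Figure D2:**
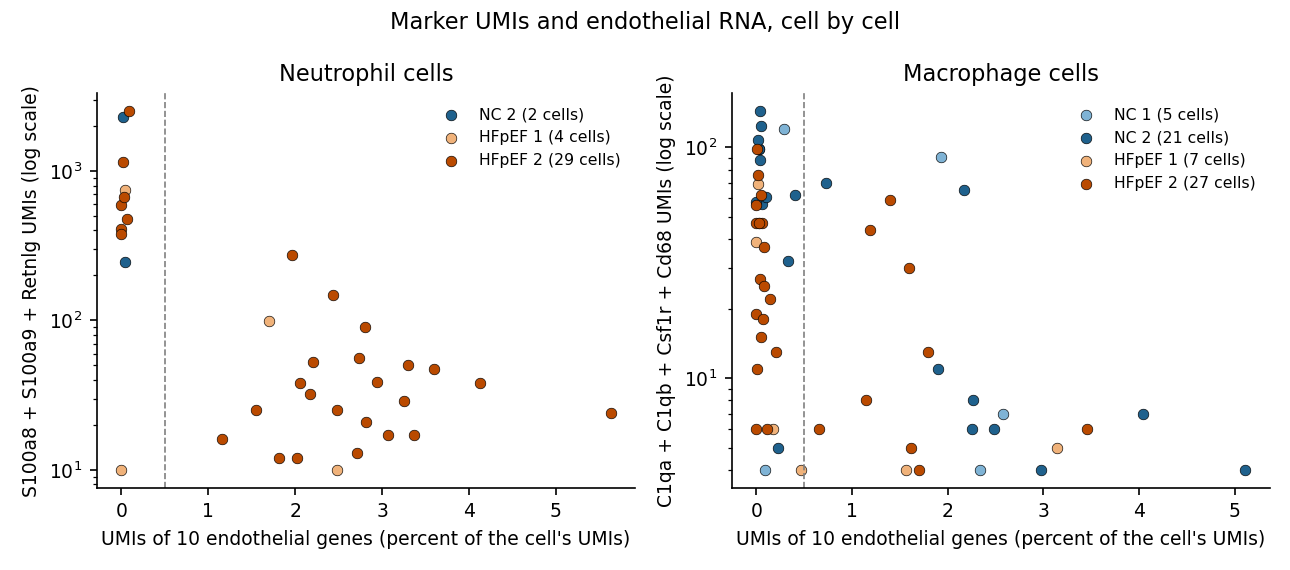
UMIs of the rule genes (y axes, log scale) against the percentage of a cell's UMIs in 10 endothelial genes (x axes), with 1 point per neutrophil (left) or macrophage (right) coloured by library and a dashed line at 0.5%. The neutrophils leave a gap between 0.0844% and 1.16%, and 22 of the 29 cells of HFpEF library 2 lie to its right, with fewer rule UMIs than most cells to its left.

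The neutrophils with few endothelial transcripts carried the neutrophil program in depth. They had 10 to 2505 UMIs of the 3 rule genes, and the 24 others had 10 to 273. All 11 had at least 10 UMIs of an 18-gene list of neutrophil identity genes that the rule did not use (median 71). Among the 24 cells with many endothelial transcripts 4 had no UMI of the list, 9 had 1 or 2 and 11 had 3 or more. In these 13 cells with fewer than 3 UMIs of the list, the name neutrophil rests on S100a8, S100a9 and Retnlg. Ly6g, the surface antigen used to define mouse neutrophils, was read with 30 UMIs in 6 cells, all in the low group (777 CPM, against 0).

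S100a9 and S100a8 were the most abundant transcripts of the neutrophils. S100a9 gave 1312 UMIs in NC library 2, 491 in HFpEF library 1 and 3380 in HFpEF library 2, S100a8 gave 1211, 318 and 3230, and Retnlg, a resistin-like peptide of granulocytes, gave 14, 51 and 643. Pooled over libraries, S100a9 stood at 46420 CPM and S100a8 at 42622 CPM, and S100a9 at 118016 CPM in the cells with few endothelial transcripts. Because 1 UMI counts 1 transcript at its 3′ end, CPM of different genes can be set side by side without regard to length. After Malat1, Fabp4 was the next most abundant gene outside the mitochondrial and ribosomal protein genes, at 14482 CPM, and it was at 233 CPM in the cells with few endothelial transcripts.

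Genes of mature neutrophils followed in the pooled profile, with values here set beside those of macrophages. All 18 genes of the identity list were detected and all 18 were higher than in macrophages, 9825 CPM in sum against 433. Csf3r, the receptor for the granulocyte growth factor G-CSF, stood at 582 against 22.2 CPM. Cxcr2, the chemokine receptor that draws neutrophils from blood, stood at 367 CPM and at 0 UMIs in macrophages, at least 44.1-fold higher when 3 UMIs over the group are taken as the floor. The proteases Mmp9 (493 CPM, at least 59.2-fold) and Mmp8 (322 against 22.2 CPM, and 166 without 1 cell that held 19 of 36 UMIs), the antiprotease Slpi (1182 against 19.4 CPM) and the histamine-forming enzyme Hdc (743 against 11.1 CPM) were of the same kind. The list sum was 17721 CPM in NC library 2, 9035 in HFpEF library 1 and 9101 in HFpEF library 2. In cells with few endothelial transcripts alone it was 17721 CPM in NC library 2, 15727 in HFpEF library 1 and 27135 in HFpEF library 2, so the order of the libraries changed with those cells.

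By the fixed rule of the 15 largest log2 ratios of CPM against macrophages (10 CPM added), the neutrophil genes ran from Lcn2, the iron-siderophore binding protein of granules, at 7.06 through Wfdc21 at 6.55, Ifitm1 at 6.36 and Stfa2l1 at 5.97 down to Mxd1 at 4.31. Between them lay Mmp9, Slpi, Acod1, Cxcr2, Hdc, Rdh12, Hcar2, Ly6g, Clec4d and Lrg1. Acod1 makes the immunometabolite itaconate and was read at 914 against 13.9 CPM. Hcar2 is a receptor for ketone bodies and niacin and was read at 421 CPM with 1 UMI in macrophages. The genes were taken from 322 candidates that were higher in neutrophils in both HFpEF libraries, the libraries with at least 3 cells of each subset.

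Granule genes divided by the stage at which they are made. The genes of primary granules, which are transcribed in promyelocytes of the marrow, gave 1 UMI of Prtn3, with Mpo, Elane and Ctsg at 0. The genes of secondary granules, made at a later stage, summed to 8284 CPM, but 1 cell of NC library 2 held 776 of their 925 UMIs (83.9%) and the sum was 1419 CPM without it. That cell, with 6616 UMIs of which 2292 were of the rule genes, held 233 of 233 UMIs of Camp, 262 of 269 of Ngp and 124 of 125 of Ltf. Lcn2 was more widely spread, with UMIs in 13 cells and 1266 CPM without that cell. The profile of NC library 2 was thus set by 1 of its 2 neutrophils for these genes.

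Transcripts of activation were shared with macrophages. The 10-gene activation list summed to 9037 CPM in neutrophils and 10760 CPM in macrophages. By library it was 10783, 5633, 6186 and 17967 CPM in macrophages of NC libraries 1 and 2 and HFpEF libraries 1 and 2. In neutrophils it was 15598.5, 7287 and 8514 CPM in NC library 2 and HFpEF libraries 1 and 2. Among the libraries with both subsets, macrophages were thus higher only in HFpEF library 2. Il1b, the precursor of interleukin-1β, was at 2499 against 1034 CPM and Cxcl2 at 3905 against 5919 CPM. Without HFpEF library 2 Il1b was at 4605 against 685 CPM and Cxcl2 at 5158 against 3791 CPM, so the order of Cxcl2 turned. Tnf was at 143 against 721 CPM. Siglecf, which marks eosinophils and some tissue neutrophils, was at 0 in both. Cxcr4, which retains ageing neutrophils and draws them to the marrow, was at 385 CPM. It was below Cxcr2 in the cells with few endothelial transcripts (674 against 985 CPM, on 26 and 38 UMIs) and above it in those with many (233 against 41.1 CPM, on 17 and 3 UMIs).

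**Figure D3:**
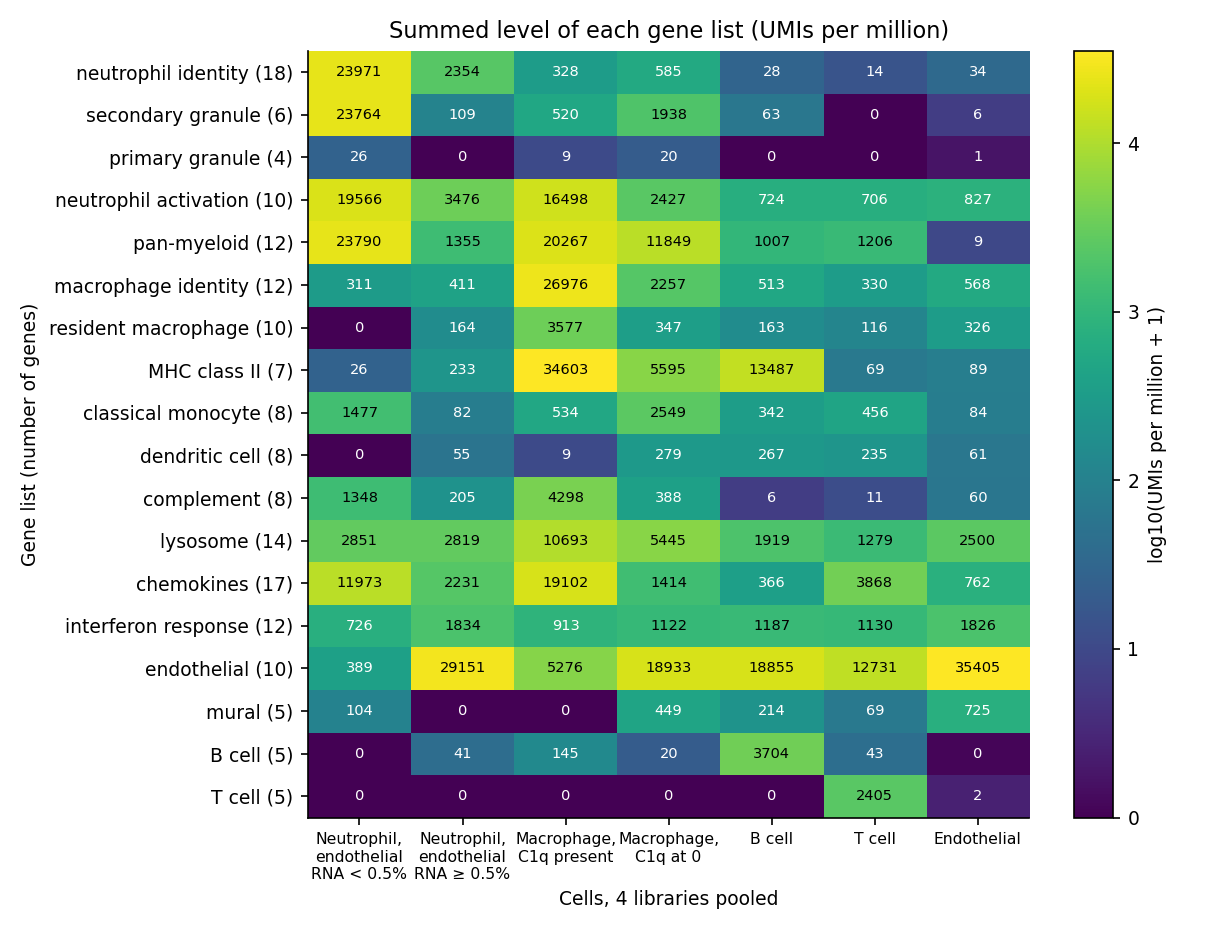
Heat map of the summed level of 18 gene lists (rows, number of genes in brackets) in neutrophils and macrophages, each divided in 2, and in B, T and endothelial cells (columns), with UMIs scaled as CPM printed in the cells and shown as colour on a log10 scale. The endothelial list is at 29151 CPM in the neutrophils at or above 0.5% and at 389 CPM in those below, and MHC class II is highest in C1q-positive macrophages (34603 CPM).

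The rule genes of macrophages were read in all 4 libraries. C1qa was at 1715, 2869, 2161 and 2456 CPM and C1qb at 2617, 3046, 2042 and 2748 CPM in NC libraries 1 and 2 and HFpEF libraries 1 and 2. Csf1r, the receptor for the growth factor on which macrophages depend, was at 654, 845, 444 and 616 CPM, and the lysosomal protein Cd68 at 113, 537, 503 and 393 CPM. These values are a description, since the genes chose the cells. Cd68 in NC library 1 was the lowest, on 5 UMIs.

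Antigen presentation led the genes that set macrophages apart from neutrophils. Cd74, the invariant chain of MHC class II, was at 10804 against 44.8 CPM (log2 ratio 7.63), H2-Aa at 4250 against 71.6 CPM, and H2-Eb1 and H2-Ab1 at 3740 and 3338 CPM. All 7 genes of the class II list were detected, 22773 CPM in sum against 161 in neutrophils and 13487 in B cells. C1qc, the third C1q chain and not part of the rule, was at 1627 CPM and 0 UMIs in neutrophils (at least 60.6-fold). Pf4, a platelet chemokine that tissue macrophages also make, was at 1253 CPM (at least 46.6-fold), with platelet genes at 0 apart from 1 UMI of Ppbp. Apoe, an apolipoprotein of cholesterol transport, was at 11794 against 179 CPM, and at 362 CPM in endothelial cells.

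The remaining genes of the 15 largest ratios were S100a4, F13a1, Ccl2, Mt1, Mgl2, Mrc1, Ctss and Ms4a6c, from 1269 candidates. The monocyte chemoattractant Ccl2 was at 524 CPM, the mannose receptor Mrc1 at 424 CPM and the protease cathepsin S (Ctss), which trims the invariant chain, at 1176 CPM against 17.9. The 12 macrophage identity genes outside the rule were all detected, with 16895 CPM in sum against 376, and Maf, Trem2, Adgre1 (the F4/80 antigen) and Cx3cr1 at 338, 205, 261 and 136 CPM. Of the 49 Cx3cr1 UMIs 33 came from NC library 2, and the level was 76.9 CPM without it. The scavenger and resident genes were lower, 2260 CPM in sum for 10 genes. Lyve1 was at 213 CPM in 10 cells, Folr2 at 161 CPM, Cd163 at 164 CPM and Timd4 at 19.4 CPM on 7 UMIs in 4 cells. Folr2 was at 99.7 CPM without HFpEF library 2, which held 35 of its 58 UMIs.

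Chemokine transcripts were abundant in macrophages and unequal between libraries. The 17-gene list summed to 11888 CPM, with 15 genes detected. Cxcl2 (5919 CPM), Ccl4 (1810 CPM) and Cxcl1 (1026 CPM) led it. Of the 370 Cxcl1 UMIs 305 came from HFpEF library 2, and the level was 282 CPM without that library. HFpEF library 2 had 20654 CPM of the list against 9610, 6026 and 7666 in NC libraries 1 and 2 and HFpEF library 1. Cxcl2 was at 9700 CPM there and at 3275 to 5595 CPM elsewhere, and Ccl4 at 4211 CPM there and at 296 to 587 CPM elsewhere, so the 2 HFpEF libraries did not agree. Lysosomal genes summed to 8553 CPM against 2830 in neutrophils, led by cathepsin B (Ctsb, 1855 CPM). Il10 was read with 12 UMIs, all in HFpEF library 2. Of the 6 proliferation genes 4 were detected, with 55 UMIs in 17 of 60 cells, led by Mki67 (29 UMIs in 5 cells) and Stmn1 (19 UMIs in 16 cells), while Top2a and Cdk1 were at 0.

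Other functions were divided between the subsets. The Fc receptor list, by which both cell types bind antibody-coated particles, summed to 3565 CPM in neutrophils and 4081 CPM in macrophages, led by its signalling adaptors Tyrobp (2158 CPM) in neutrophils and Fcer1g (1608 CPM) in macrophages. The subunits of the NADPH oxidase, which makes superoxide, summed to 1961 and 1877 CPM. Within that list Cybb was at 260 against 604 CPM and Ncf1 at 224 against 80.4 CPM. Of the 29 Cybb UMIs of neutrophils 25 came from 1 cell of NC library 2, and the level was 38.1 CPM without it. Cd14, the co-receptor for lipopolysaccharide, led the Toll-like receptor list in both, at 1943 and 1336 CPM, though without 1 cell of HFpEF library 2, which held 91 of 217 UMIs, the level of neutrophils was 1233 CPM. Tlr7 was read only in macrophages, with 20 UMIs against 0. The iron list was led by the ferritin light chain Ftl1 in macrophages (8977 against 4003 CPM) and by the heavy chain Fth1 in neutrophils (7872 against 7463 CPM). Without 1 cell of HFpEF library 2, which held 238 of 879 Fth1 UMIs, neutrophils were at 6274 CPM, below macrophages.

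Among growth factors, Igf1 was at 116 CPM in macrophages and 0 UMIs in neutrophils, and Il6 gave 1 UMI in neutrophils and 0 in macrophages. NC library 2 held 28 of the 42 Igf1 UMIs of macrophages, and the level was 67.3 CPM without it. Of the complement genes outside C1q, the C3a receptor C3ar1 was at 266 CPM in macrophages and at 0 in neutrophils, and the C5a receptor C5ar1 was at 363 and 439 CPM. Of the lipid-associated genes, Gpnmb gave 1 UMI in macrophages and Spp1 gave 0, 5, 33 and 2 in NC libraries 1 and 2 and HFpEF libraries 1 and 2, with 31 of the 40 in 1 cell of HFpEF library 1. Cd36, the fatty acid transporter that endothelial cells also express, was at 3099 CPM in neutrophils and 1688 CPM in macrophages. Cd36 led the lipid-associated list in neutrophils with many endothelial transcripts (list sum 8184 CPM), whereas Ctsd led it in those with few (3162 CPM). The interferon response list summed to 1451 CPM in neutrophils, 998 in macrophages and 1826 in endothelial cells, and was lower in neutrophils with few endothelial transcripts (726 CPM) than in those with many (1834 CPM).

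Cells chosen as macrophages differed among themselves. C1qa or C1qb was present in 41 of 60 cells, 3, 13, 5 and 20 in NC libraries 1 and 2 and HFpEF libraries 1 and 2, and at 0 in 19, which were chosen by Csf1r and Cd68. The C1q-positive cells had 26976 CPM of the identity list and 34603 CPM of the class II list. The C1q-zero cells had 2257 and 5595 CPM. The C1q-zero cells were instead higher in classical monocyte genes (2549 against 534 CPM), among them Plac8 (986 against 0 CPM) and Ly6c2 (408 against 14.0 CPM), and in Ace (238 against 4.68 CPM) and Itgal (415 against 0 CPM), genes of monocytes that patrol vessels. They also held more endothelial transcripts, at 18933 against 5276 CPM of the list, and 14 of the 19 lay above 0.5%. Of the 36 Ace UMIs of all macrophages 23 came from NC library 2, where 7 of 8 C1q-zero cells lay above 0.5%. The part of endothelial transcripts in Ace was not tested.

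Monocyte genes were concentrated in few cells. At least 10 UMIs of the 8-gene monocyte list were seen in 7 C1q-zero cells, 2 in HFpEF library 1 and 5 in HFpEF library 2 and none in NC, and in 1 C1q-positive cell of NC library 2. This count depends on depth. By percentage of UMIs, a C1q-zero cell of NC library 1 (0.234%) and another of NC library 2 (0.149%) lay above the lowest of the 7 (0.110%), and the 4 highest, 0.387% to 1.24%, were from HFpEF libraries. Of the 5 cells of HFpEF library 2, 2 formed a matched pair, with 11 and 16 UMIs of the list. Another 3 of the C1q-zero cells, 1 in NC library 1 and 2 in NC library 2, went against the label. They had 4 UMIs of Cd68, none of Csf1r and none of 12 pan-myeloid genes such as Lyz2 and Tyrobp, and 2.34%, 2.97% and 5.11% endothelial UMIs, so the alternatives that leave out cells rich in endothelial transcripts leave them out. Dendritic cell genes were sparse. Flt3 was read with 2 UMIs, Xcr1, Clec9a and Ccr7 with 0, and Cd209a, a lectin of dendritic cells that derive from monocytes, with 28 UMIs, all in the 2 cells of that matched pair, where class II genes took 2.64% and 3.41% of UMIs. Of the 7 C1q-zero cells with at least 10 monocyte UMIs, 2 thus carried Cd209a. Among the others, the HFpEF library 2 cells with 3619 and 15300 UMIs had 3 and 1 UMIs of the dendritic cell genes.

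Among the 41 C1q-positive cells class II and resident genes varied from cell to cell. Class II genes took 0.0855% to 8.39% of the UMIs of a cell (median 3.35%) and the 10 resident genes 0 to 2.03% (median 0.236%). Class II UMIs exceeded resident UMIs in 34 cells and resident UMIs exceeded class II UMIs in 7. Mrc1 was read in 28, Cd163 in 13 and Lyve1 in 10 of the 41 cells. The matched set of 5 barcodes of HFpEF library 2 supplied 5 of the 7 cells with more resident UMIs, 5 of the 13 with Cd163 and 5 of the 10 with Lyve1, and another matched set of that library supplied 3 of the 13 with Cd163. By profile, the 7, 13 and 10 cells came to 3, 7 and 6.

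**Figure D4:**
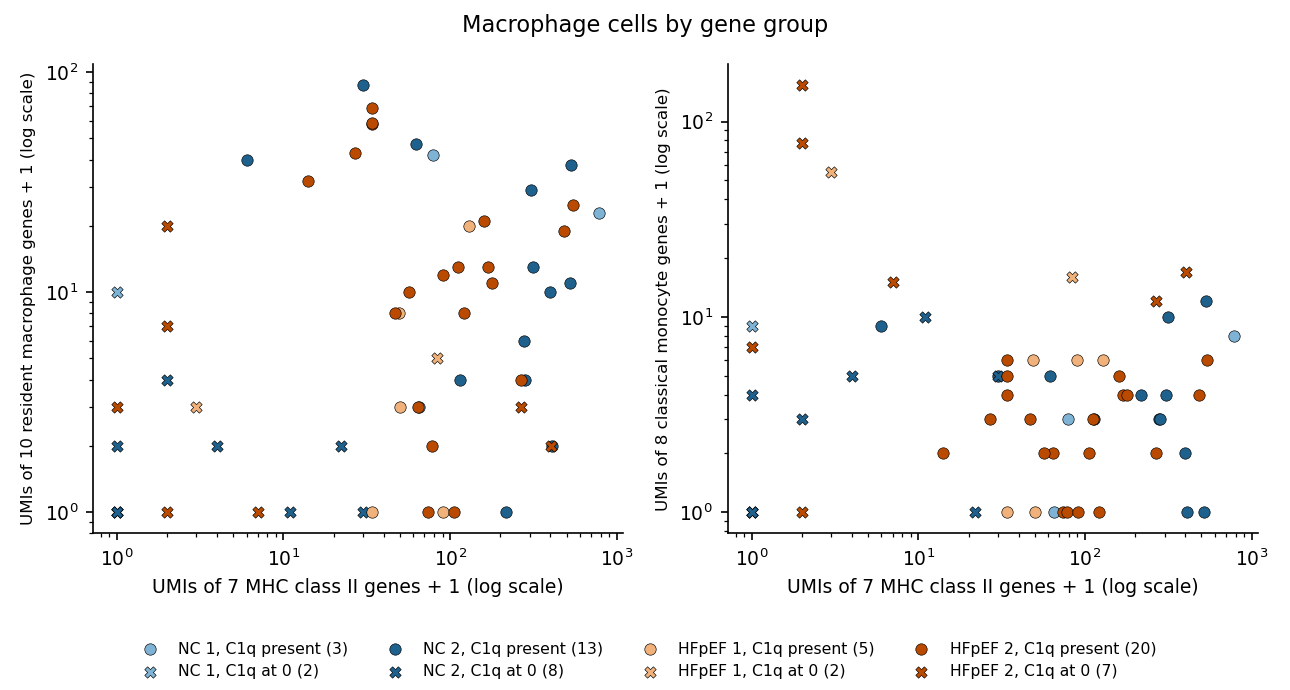
UMIs of 10 resident macrophage genes (left) and of 8 classical monocyte genes (right) against UMIs of 7 MHC class II genes (x axes) in each of the 60 macrophages, with 1 added and log axes. Circles have C1qa or C1qb UMIs and crosses have none, and the cells with the most monocyte UMIs are crosses from the HFpEF libraries.

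Of the genes at the centre of the study, Scarb1, Cxcl9 and Cxcr3 gave few UMIs in both subsets. Scarb1 (ENSMUSG00000037936, chr5:125277087-125341094, minus strand) was read with 6 UMIs in neutrophils, all in cells with many endothelial transcripts, and with 9 UMIs in macrophages (25.0 CPM), 0, 4, 3 and 2 in NC libraries 1 and 2 and HFpEF libraries 1 and 2. In endothelial cells it was at 68.9 CPM. Cxcl9, a chemokine induced by interferon-γ, was read with 5 UMIs in each subset, and with 123 CPM in endothelial cells. Its receptor Cxcr3 gave 0 UMIs in neutrophils and 2 in macrophages.

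Cxcl10, another ligand of Cxcr3, was more abundant in macrophages, at 316 CPM on 114 UMIs in 14 of 60 cells, against 134 CPM in endothelial cells and 17.9 CPM in neutrophils. By library the macrophage level was 902, 72.0, 326 and 400 CPM in NC libraries 1 and 2 and HFpEF libraries 1 and 2. The level of NC library 1 came from 1 cell, which held 40 of the 114 UMIs. With that cell the HFpEF libraries lay between the NC libraries. Without it both lay above both NC libraries, but the highest cells of the HFpEF libraries were kept. No order of the regimens is therefore read from these levels. Irf1, a transcription factor induced by interferons, was at 511 CPM in neutrophils, 191 CPM in macrophages and 504 CPM in endothelial cells. In neutrophils it was at 130 CPM in the cells with few endothelial transcripts and 712 CPM in those with many. In macrophages it was at 271, 190, 178 and 169 CPM in NC libraries 1 and 2 and HFpEF libraries 1 and 2, on 6 to 29 UMIs per library.

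Whether macrophage transcripts differed between HFpEF and NC was tested on UMI sums per library with edgeR's quasi-likelihood test, a comparison that the rule did not use. No gene was called at a Benjamini-Hochberg adjusted p under 0.05 among 1468 tested (0% called, lowest adjusted p 0.574). Without adjustment 115 genes (7.83%) had p under 0.05, 40 higher and 75 lower in HFpEF, and DESeq2 called 1 gene. The median standard error of a log2 fold change was 0.48, on 5, 21, 7 and 27 cells per library. The libraries of the regimens did not overlap for 290 genes that were higher (19.8%) and 305 that were lower in HFpEF (20.8%), which is the background for the lists that follow. With 1 library left out the count called was 30 without NC library 1, 0 without NC library 2, 27 without HFpEF library 1 and 10 without HFpEF library 2, and with no count filter it was 13. For neutrophils the same test was not made, because the NC libraries held 0 and 2 of these cells.

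The 5 genes of lowest unadjusted p were Ly6c2, Plac8, Mki67, Ccr2 and Saa3, all higher in HFpEF and none called by edgeR, whereas DESeq2 called Plac8 (adjusted p = 0.00525) and edgeR with no count filter called Ly6c2, Plac8, Mki67 and Saa3. Ly6c2, the surface antigen of classical monocytes, gave 0 and 2 UMIs in NC libraries 1 and 2 and 6 and 55 in HFpEF libraries 1 and 2 (log2 fold change 4.79 ± 0.82 SE, edgeR unadjusted p = 0.000627, adjusted p = 0.574). Plac8, another monocyte gene, gave 6, 8, 46 and 85 UMIs (3.48 ± 0.63 SE, edgeR unadjusted p = 0.000886, adjusted p = 0.574). Ccr2, the receptor for Ccl2, gave 1, 3, 6 and 27 UMIs (3.10 ± 0.62 SE, edgeR unadjusted p = 0.00156, adjusted p = 0.574). The libraries of the regimens did not overlap for any of these 3. The cell cycle antigen Mki67 gave 0 and 0 against 8 and 21 UMIs (11.6-fold higher over the group floor of 3 UMIs) and the serum amyloid Saa3 gave 0 and 0 against 4 and 24 (11.2-fold). The lower 95% limits of the ratios by counting error, which take UMIs as independent, were 8.87 and 8.55.

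Single cells carried much of these sums. In 1 cell of HFpEF library 2 each stood 47 of 63 UMIs of Ly6c2, 24 of 28 of Saa3, 15 of 29 of Mki67 and 11 of 37 of Ccr2, and 1 cell of HFpEF library 1 held 38 of 145 of Plac8. All 8 Mki67 UMIs of HFpEF library 1 came from 1 cell, and 19 of the 21 of HFpEF library 2 from 2 cells, with 15 and 4, whose profiles formed a matched pair. Leaving out cells with 0.5% or more endothelial UMIs, which left 2 macrophages in NC library 1, took Ly6c2, Ccr2 and Saa3 below the count filter and left Plac8 with a log2 fold change of 2.85.

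**Figure D5:**
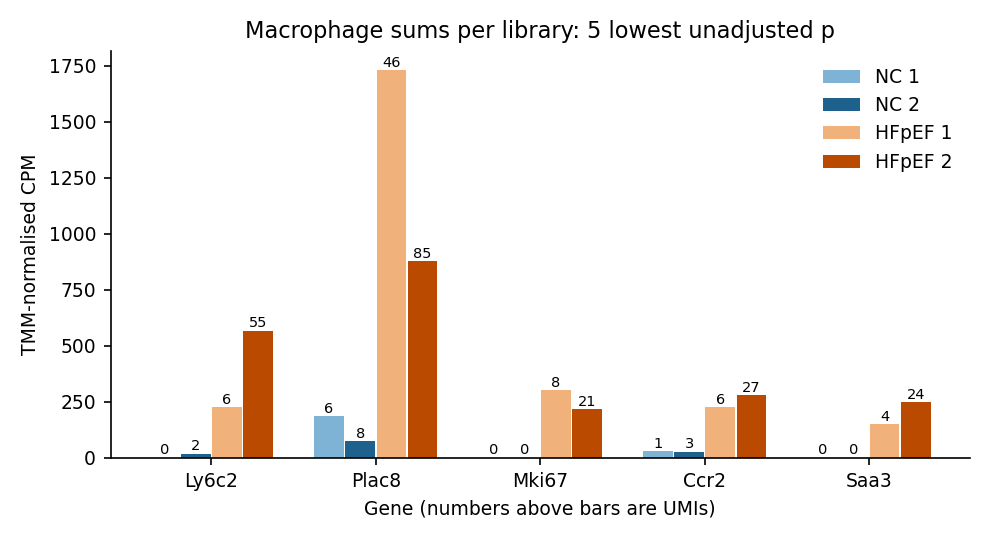
TMM-normalised CPM (y axis) of the 5 genes with the lowest unadjusted p in the macrophage sums, 1 bar per library, with the UMIs behind each bar printed above it. Both HFpEF bars exceed both NC bars for every gene, on 4 to 85 UMIs, and no gene passed the adjusted threshold with edgeR after the count filter, whereas Ly6c2, Plac8, Mki67 and Saa3 passed it with no count filter and Plac8 with DESeq2.

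Of the classical monocyte genes none was called by edgeR after the count filter. With no filter edgeR called Ly6c2, Plac8, Vcan and Ms4a4c, and DESeq2 called Plac8. Of the proliferation list 1 gene was tested, Mki67. All 6 monocyte genes that were tested of 8 (Ly6c2, Plac8, Ccr2, Ms4a4c, Ms4a6c and Fn1) lay higher in both HFpEF libraries, with a median log2 fold change of 3.29, against -0.04 over all genes tested. With Ms4a4c, which was at 0 in both NC libraries, set to its bound over 3 UMIs, the median was 3.09. Ms4a4c, Ly6c2 (0 and 2 UMIs in NC libraries 1 and 2) and Ccr2 (1 and 3) passed the count filter through the HFpEF libraries. The filter thus partly set the direction and size of the median, which is a description only. The summed level of all 8 genes of the list, tested or not, was 384 and 465 CPM in NC libraries 1 and 2 and 2486 and 2440 CPM in HFpEF libraries 1 and 2. A single cell held 54 of the 84 UMIs of HFpEF library 1 and another 152 of the 317 of HFpEF library 2, and with the highest cell of each library left out the sums were 220, 414, 1120 and 1402 CPM in NC libraries 1 and 2 and HFpEF libraries 1 and 2. The 10 immediate early and heat shock genes had a median of -0.81, with 6 lower in both HFpEF libraries, among them the growth response factor Egr1 (-1.24 ± 0.34 SE) and Junb (-1.02 ± 0.33 SE). Hspa1a and Fos were at 0.08 and -0.01.

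The endothelial genes stood lower in HFpEF in the same comparison, and none was called. Of 10 tested, 7 lay lower in both HFpEF libraries with a median of -0.90, and their sum was 14280, 12943, 6511 and 8337 CPM in NC libraries 1 and 2 and HFpEF libraries 1 and 2. Fabp4 led them at 11031, 9465, 4647 and 6459 CPM. Their part in the other differences was not tested.

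The lists that define macrophages overlapped between the regimens for most genes. Of the 10 identity genes tested 2 lay lower and 0 higher in both HFpEF libraries, a share close to the background, while all 10 had a log2 fold change below 0 (median -0.59). Of the 6 class II genes 1 lay lower (median -0.26), and of the 8 resident genes 0 lay on either side (median 0.49). Chemokines had 3 of 11 higher and 1 lower (median 0.75), lysosomal genes 5 of 14 higher and 1 lower (median 0.24), and pan-myeloid genes 5 of 12 higher (median 0.32), each on log2 fold changes that edgeR did not call after the count filter, whereas the chemokine Ccl4 and Spp1 (adjusted p = 0.00108) were among the 13 genes that edgeR called with no filter.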

How the data were processed

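The authors trimmed reads with fastp, counted UMIs with Cell Ranger 5.0.1 on mm10 (Ensembl genes), downsampled reads per cell between libraries and deposited UMI counts per gene and cell, not divided by library size. Their cell filter is not applied in the deposited counts and was applied again, together with the hemoglobin filter. Levels are CPM of counts summed over cells. Doublets were not removed. Pairs of barcodes of a class in a library were taken as matched when the mean squared standardised difference was under 1.25 over at least 100 genes with 6 or more UMIs in the pair.

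The members and the gene lists were chosen with earlier results of these data known. Genes were named if they were rule genes, members of 37 lists (the most or least abundant, or a defining marker at 0), the 15 largest log2 ratios between the subsets (10 CPM added, at least 20 UMIs), the 10 most abundant, the 5 lowest unadjusted p of the regimen comparison, or Scarb1, Cxcl9, Cxcl10, Cxcr3 and Irf1. Others named were chosen after their values were seen. Macrophage sums were tested with edgeR 4.0.16 in R 4.3.3 (TMM, filterByExpr, quasi-likelihood test, Benjamini-Hochberg adjustment) and, as an alternative, DESeq2 1.42.0. Nothing says that libraries are separate animals or of the same genotype. The p-values thus measure the spread between libraries, which may be technical or include genotype. The script was tested on simulated data. The alternatives changed the UMI minimums, depth, mitochondrial and hemoglobin filters, endothelial transcripts, normalization, count filter and replicate block, and left out each library. The 0.5% endothelial limit and 1 barcode per matched set were added after seeing the data. Genotypes were not compared.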

Additional observations from a re-analysis of the deposited data

How the results depend on the processing

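The share of neutrophils stayed higher in HFpEF under every alternative run, with a difference of 0.0204 to 0.101 percentage points when cells were chosen otherwise and 0.0586 to 0.126 when each library was left out in turn. It was 0.0593 with UMI minimums of 20 and 8, 0.0857 with each cell thinned to 1000 UMIs and 0.0418 without cells that had 5 or more UMIs of Cdh5, Pecam1, Kdr and Cldn5. None of these designs can give a p under 0.333. The macrophage share differed by -0.858 percentage points with UMI minimums of 5 and 2, by -0.0115 after thinning and by -0.00178 without those endothelial-marker cells, and by -0.184 to 0.0596 when each library was left out, the positive value being the one without NC library 2. Cells with 2 marker UMIs, which the first setting admits, had a median of 3.20% endothelial-list UMIs, close to that of endothelial cells.

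The count of macrophage genes called was 0 with edgeR, 1 with DESeq2 (Plac8, adjusted p = 0.00525), 0 with RLE size factors and 13 of 11398 with no count filter, which also calls Ly6c2, Mki67 and Saa3. It was 0 to 30 when each library was left out, with 30 without NC library 1, 0 without NC library 2, 27 without HFpEF library 1 and 10 without HFpEF library 2, where the lone library of a regimen is assumed to vary like the other regimen's. With the library number as a replicate block it was 0. The numbers pair nothing in the labels, and the deviations of same-numbered libraries correlated at 0.0577 over 2 pairs. It was also 0 with UMI minimums of 20 and 8, without cells rich in endothelial transcripts by either limit, and with 1 barcode per matched set. The cause of these changes was not tested. No alternative was run for neutrophil genes, since the test itself was not made. Macrophage sums held 33787 to 152673 UMIs per library.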
